A study of Rattus norvegicus with 6 samples.

Results

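Sterol transporters and targets of the nuclear receptor LXR were followed in the ileum, the stretch of small intestine that ends at the colon, of Zucker fa/fa rats. The set holds 10 genes (Abcg5, Abcg8, Npc1l1, Abca1, Abcg1, Soat2, Scarb1, Mylip, Nr1h3 and Lpcat3), taken by symbol from the 14506 genes tested, and each of the 10 was represented by a single row of the array. In 3 rats a duodenum-jejunum bypass (DJB) joined the lower jejunum to a cut in the upper duodenum, so that food skipped the duodenum and upper jejunum while bile and pancreatic juice re-entered further down. In the other 3 rats a sham operation made similar cuts and rejoined them, and food kept its normal course. Both groups carried the fa/fa genotype, a defect of the leptin receptor that makes the rats obese, were operated on at 20 weeks of age and were killed 14 days after surgery. Each rat gave 1 Affymetrix whole-transcript array, read here as a log2 level normalised by RMA, with array medians between 6.08 and 6.19. With 3 arrays per group, their number sets the precision.

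Cholesterol enters the enterocyte through NPC1L1 at the apical membrane, and part of it is pumped back into the gut lumen by a transporter built from ABCG5 and ABCG8. What stays is esterified by the enzyme encoded by Soat2 for export in chylomicrons, or leaves across the basolateral membrane through ABCA1. The liver X receptors, LXRs, are nuclear receptors switched on by oxidised sterols, and they raise transcription of Abcg5, Abcg8, Abca1, Abcg1, Mylip and Lpcat3 as part of the defence against excess sterol. SREBP2, in contrast, drives cholesterol synthesis when sterols in the cell are scarce.

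The 10 genes were all lower on average after DJB, against 38.3% of all genes tested. In limma, with Benjamini-Hochberg adjustment over all genes, 3 of them fell (Abcg5, Abcg8 and Scarb1), where 0.379% of all genes were called lower. The other 7 did not pass, and 0 were called higher (also 0 at an unadjusted limma p under 0.05). The median difference of the 10 was -0.46 on the log2 scale, DJB minus sham, against 0.05 over all genes. In 7 of the 10 the DJB arrays lay wholly below the sham arrays, which was so for 6.56% of all genes. Because the 10 genes were chosen with earlier results of these data known, these shares are a description and not independent evidence. All 10 had a mean above 6.11, the median of all rows.

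**Figure D1:**
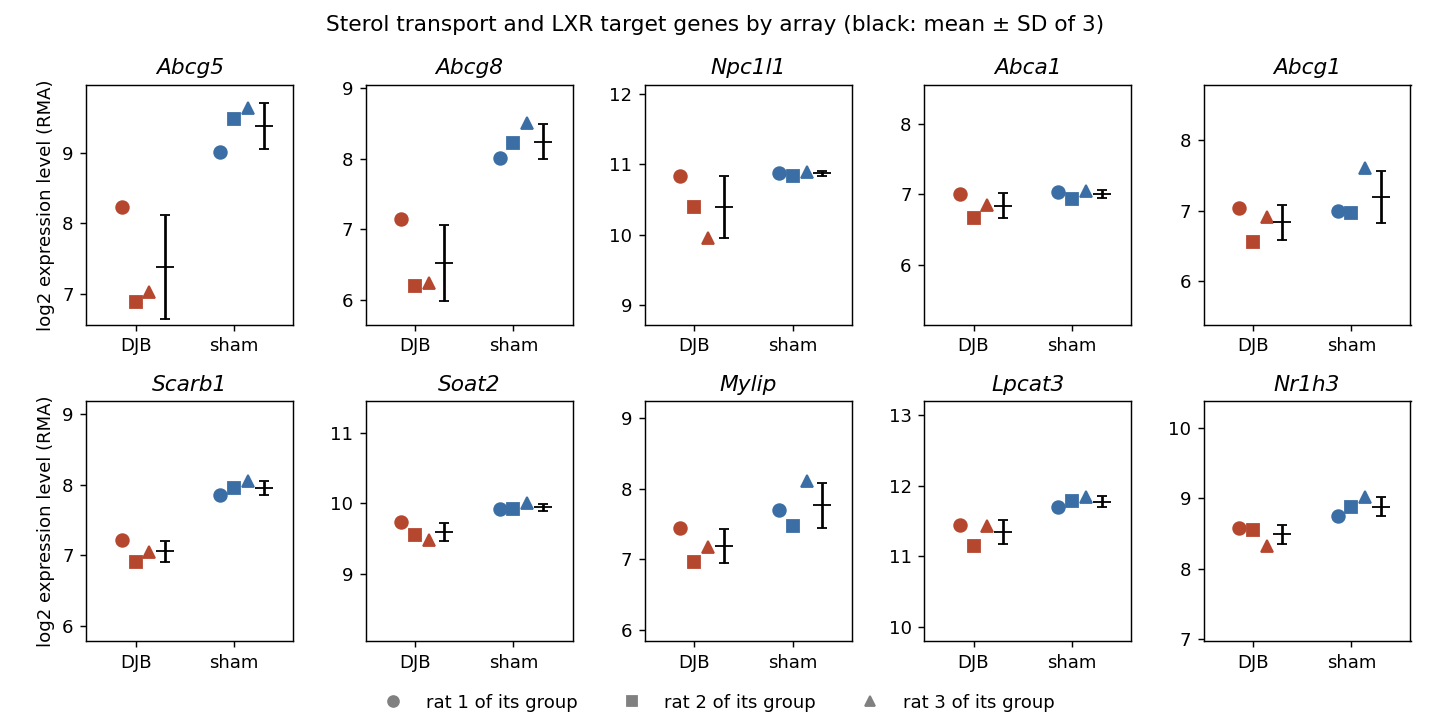
Log2 expression level (RMA) of the 10 genes on each array, with DJB on the left and sham on the right of each panel, the black marks giving the mean ± SD of 3 arrays. Every panel spans the same number of log2 units, so that the gap between groups can be read as wide for Abcg5 (7.38 against 9.38) and narrow for Abca1 (6.84 against 7.01).

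Abcg5 and Abcg8 are the sterol exporters of the apical membrane, and each protein is inactive without the other. Abcg5 had levels of 8.23, 6.89 and 7.02 on the DJB arrays, against 9.02, 9.48 and 9.63 on the sham arrays. Abcg8 had levels of 7.14, 6.19 and 6.23 on the DJB arrays, against 8.0, 8.22 and 8.50 on the sham arrays. In both genes the groups were apart by a wide margin (0.79 and 0.86 between the highest DJB and the lowest sham array), and DJB 1 was the DJB array nearest to sham.

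The change of Abcg5 was -2.0 ± 0.32 (SE, n = 3 per group, limma adjusted p = 0.0289), which puts the DJB level at 25.03% of the sham level on a linear scale. Abcg8 changed by -1.72 ± 0.24 (adjusted p = 0.0181), to 30.4% of sham. Among all genes tested only 10 had a more negative difference than Abcg5, which placed it 11th, and Abcg8 was 14th. The log2 ratio of Abcg5 to Abcg8 within an array differed by -0.28 between DJB and sham, and an exact two-sided permutation test of that ratio gave p = 0.2. With 3 against 3 arrays that test cannot give less than 0.1, so it cannot decide whether the 2 genes fell equally. Both calls ended when DJB 2, DJB 3, sham 2 or sham 3 was left out (adjusted p up to 0.142 for Abcg5 and 0.0941 for Abcg8), with differences then between -1.95 and -1.75 for Abcg5 and between -1.73 and -1.55 for Abcg8.

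The start sites of these genes face away from each other on chromosome 6 of the rat assembly GRCr8, with 205 bases between them. That stretch is shown because a single interval lies before both genes that fell together; the sequence is from RefSeq, chr6:15717731-15717935, plus strand, 5′ to 3′, with Abcg8 starting to its left on the minus strand and Abcg5 to its right. Capitals mark matches to AGATAA, a core sequence that GATA transcription factors bind:
Abcg5 and Abcg8 interval: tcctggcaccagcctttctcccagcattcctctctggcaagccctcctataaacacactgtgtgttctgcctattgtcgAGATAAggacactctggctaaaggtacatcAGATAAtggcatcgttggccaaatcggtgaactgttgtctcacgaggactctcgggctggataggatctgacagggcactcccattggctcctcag

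The interval holds AGATAA 2 times, 126 and 96 bases before the start of Abcg5. RefSeq start-site windows (250 bases before to 50 after) were at hand for 7 of the 10 genes and not for Abcg1, Soat2 or Scarb1. Both strands were searched, and AGATAA or TGATAA (matches can share an end base, though those in the windows of these genes lay apart) was present in 18.9% of all 33469 rat windows and present 2 or more times in 3.13%. Windows with 2 such matches were those of Abcg5, Abcg8 (whose windows share 295 bases) and Nr1h3. In the 7 windows there were 0 matches to AGGTCA, the core bound by many nuclear receptors (16.2% of all windows). Direct repeats of it with 4 bases or 1 base between therefore had 0 matches too (0.00598% and 0.0538% of all windows). For exact repeats this rare, 0 matches do not show that these windows lack binding sites. The HNF4 sequence CAAAGTCCA (0.391% of all windows) also had 0 matches in the 7 windows. A match or its absence is a description of these letters in these windows.

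Scarb1 encodes SR-BI, a receptor for high-density lipoprotein that is also found on enterocytes. It stood at 7.21, 6.91 and 7.04 on the DJB arrays, against 7.85, 7.95 and 8.05 on the sham arrays. The groups were 0.64 apart at their nearest arrays and spread little within themselves (SD 0.15 in DJB and 0.10 in sham, n = 3 each). Scarb1 fell by 0.90 ± 0.11 (SE, adjusted p = 0.00986), to 53.7% of the sham level, and had the lowest p of the 10 genes. Its call held when any DJB array, sham 1 or sham 2 was left out and ended without sham 3 (adjusted p = 0.0545).

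Npc1l1 encodes the apical importer of cholesterol, the target of the drug ezetimibe. The DJB arrays read 10.84, 10.40 and 9.95, and the sham arrays read 10.88, 10.83 and 10.90. The SD was 0.44 in DJB and 0.04 in sham (n = 3 each), and DJB 1 lay among the sham values. The difference was -0.47 ± 0.19 (SE), with a 95% interval from -0.90 to -0.05 before adjustment, and it did not pass (adjusted p = 0.306). Leaving out 1 array moved it between -0.69 (without DJB 1) and -0.25 (without DJB 3).

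Abca1 and Abcg1 encode exporters that load cholesterol onto lipoproteins, and both are textbook LXR targets in macrophages as well as in the gut. Abca1 read 7.01, 6.66 and 6.85 on the DJB arrays and 7.04, 6.94 and 7.05 on the sham arrays, and the groups overlapped. Abcg1 read 7.04, 6.56 and 6.91 on the DJB arrays and 7.0, 6.96 and 7.61 on the sham arrays, where sham 3 stood apart. The differences were -0.17 ± 0.11 (SE, 95% interval -0.42 to 0.08, adjusted p = 0.533) for Abca1 and -0.36 ± 0.19 (SE, 95% interval -0.79 to 0.07, adjusted p = 0.431) for Abcg1. Without sham 3 the Abcg1 difference was -0.15, and the Abca1 difference was -0.08 without DJB 2 and -0.25 without DJB 1. The interval of Abca1 does not reach that of Abcg5, which ran from -2.72 to -1.28. Abca1 and Abcg1 are expressed in macrophages, and among 8 macrophage markers 0 passed in limma, with 6 higher and 2 lower after DJB. At an unadjusted limma p under 0.05, 3 were higher (Cd163, Csf1r and Cd68). The summed level (log2 of the summed linear values) was 12.7 to 13.0 on the DJB arrays and 12.9 to 13.1 on the sham arrays. Most of that sum came from Lyz2, among the 2 lower markers, which averaged 12.2 on the DJB arrays and 12.5 on the sham arrays. The part of macrophages in the Abca1 and Abcg1 values was not tested.

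Bases before the Abca1 start are shown for the element through which LXR is known to act on this gene in human and mouse cells. They hold most of that element. The stretch is from RefSeq, GRCr8, chr5:72596474-72596723, minus strand, 5′ to 3′. Capitals mark a 15-base part of the LXR element, matched with 1 position left free:
Abca1, before the start: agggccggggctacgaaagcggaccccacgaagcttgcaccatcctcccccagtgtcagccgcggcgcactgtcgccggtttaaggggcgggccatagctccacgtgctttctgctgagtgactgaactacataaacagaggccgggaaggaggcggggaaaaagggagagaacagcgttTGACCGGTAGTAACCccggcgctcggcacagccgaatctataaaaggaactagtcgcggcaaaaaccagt

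This 15-base sequence was chosen after the windows had been read, and 1 of the 33469 windows, that of Abca1, holds it. The match begins 70 bases before the start site. It was not found in the windows of Abcg5, Abcg8, Npc1l1, Mylip, Nr1h3 and Lpcat3.

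Soat2 encodes ACAT2, which esterifies absorbed cholesterol before it is packed into chylomicrons. Its levels were 9.73, 9.55 and 9.49 on the DJB arrays, against 9.91, 9.92 and 10.00 on the sham arrays. The groups did not overlap, with an SD of 0.13 in DJB and 0.05 in sham (n = 3 each). The difference of -0.36 ± 0.10 (SE, 95% interval -0.58 to -0.13) missed the threshold (adjusted p = 0.171).

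Lpcat3 puts unsaturated fatty acids into membrane phospholipids, a step that helps enterocytes assemble chylomicrons, and Mylip encodes the ubiquitin ligase IDOL, which limits lipoprotein uptake by the cell. Lpcat3 read 11.45, 11.14 and 11.43 on the DJB arrays and 11.69, 11.78 and 11.85 on the sham arrays, without overlap. Mylip read 7.44, 6.96 and 7.17 on the DJB arrays and 7.70, 7.48 and 8.11 on the sham arrays, where the nearest values of the groups were 0.04 apart. The differences were -0.44 ± 0.11 (SE, adjusted p = 0.140) for Lpcat3 and -0.57 ± 0.18 (SE, adjusted p = 0.194) for Mylip, and neither passed. Lpcat3 was called with an intensity trend in the variance (adjusted p = 0.0435).

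Nr1h3 encodes LXRα, the receptor itself. It had levels of 8.59, 8.55 and 8.33 on the DJB arrays, against 8.75, 8.88 and 9.02 on the sham arrays. The DJB arrays were all lower, by 0.17 at the nearest, and the difference of -0.40 ± 0.11 (SE, 95% interval -0.65 to -0.14) did not pass (adjusted p = 0.172). Nr1h2, which encodes the other receptor of the pair, LXRβ, differed by -0.04 ± 0.11 (SE, adjusted p = 0.904), with overlapping groups.

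**Figure D2:**
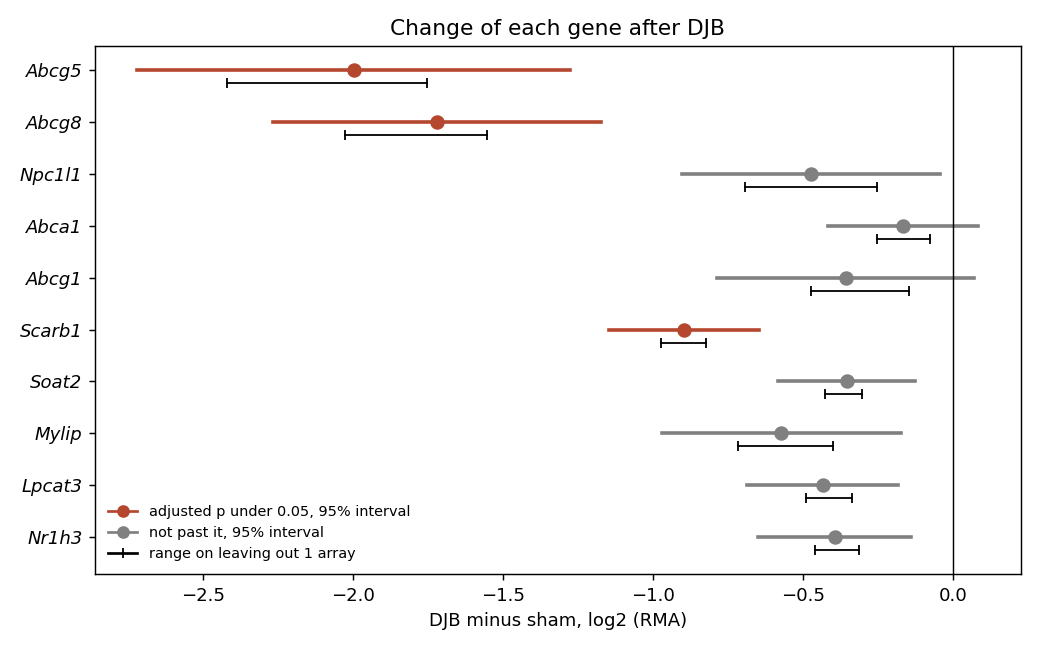
DJB minus sham on the log2 scale for each gene, with the 95% interval of the limma fit (red where the adjusted p was under 0.05, grey otherwise) and, in black, the range when 1 array was left out. The intervals of Abcg5, Abcg8 and Scarb1 lie at or below -0.65, and only those of Abca1 and Abcg1 include 0.

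A 95% interval that left out 0, before adjustment, was found for 8 of the 10 genes, and 4.45% of all genes were lower at an unadjusted limma p under 0.05. Exact two-sided permutation tests of 3 against 3 arrays cannot give less than 0.1, a value reached whenever the groups do not overlap. The 7 genes that reached it are thus the same 7 without overlap and add no further evidence. Over all genes, the groups did not overlap, in either direction, in 21.1%. In the size of the difference Scarb1 ranked 72nd among all genes from the most negative end, Mylip 148th and Abca1 1568th.

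**Figure D3:**
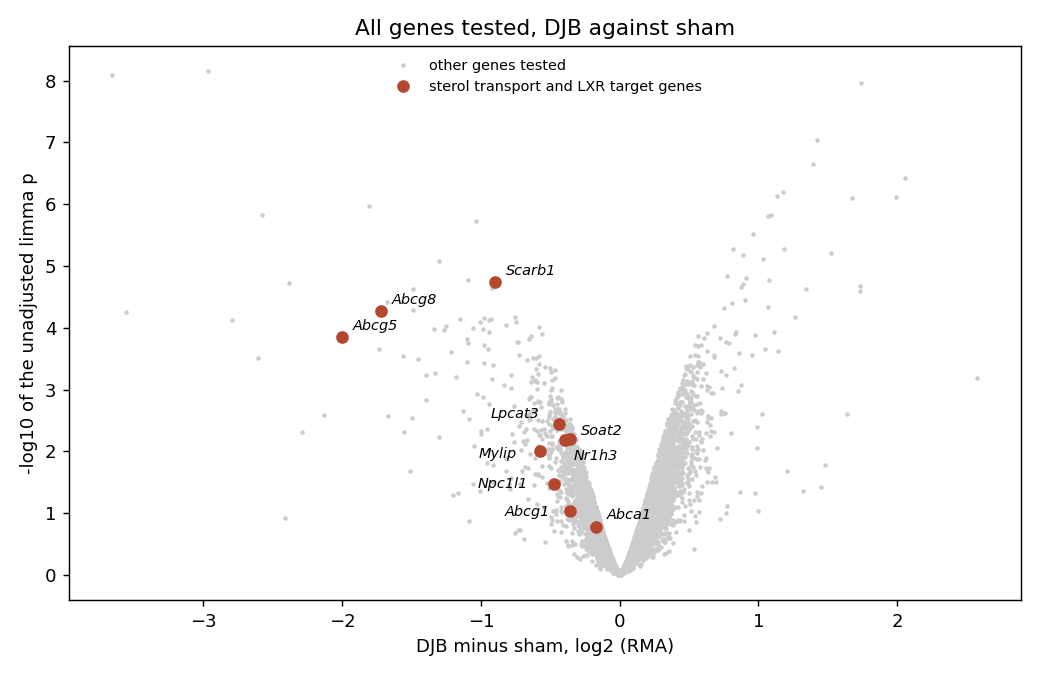
Each point is a gene, placed by DJB minus sham (log2) and by -log10 of its unadjusted limma p, with the 10 sterol genes in red. All 10 lie left of 0, with Abcg5 and Abcg8 among the far left points and Abca1, at -0.17, nearest to the centre.

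In each group a single rat was the highest in every gene, while the lowest changed. DJB 1 was the highest DJB array in 10 of the 10 genes, and sham 3 was the highest sham array in 10 of 10. The lowest DJB array was DJB 2 in 7 genes and DJB 3 in 3, and the lowest sham array was sham 1 in 6 and sham 2 in 4. Over all genes tested, DJB 1 was the highest of its group in 57.6% and sham 3 in 38.5%. Of the 55 genes called lower, which include Abcg5, Abcg8 and Scarb1, DJB 1 was the highest DJB array in 38 and sham 3 the highest sham array in 29. DJB 1 also had the highest median of the 6 arrays, 6.19. With each array centred on its median, DJB 1 was the highest DJB array in 8 of the 10 genes (35.8% of all genes) and sham 3 the highest sham array in 10 of 10 (40.3%). Across the 6 arrays Abcg5 and Abcg8 correlated at r = 0.997, and at 0.988 after the group means were removed, both as descriptions of 6 arrays on which they share RNA, array and normalisation. Without DJB 1 the median difference of the 10 genes was -0.59, and without sham 3 it was -0.40, with 3 and 0 genes called.

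The genes most like the exporter pair were sought among the 196 other genes with an SD of at least 0.5 over the 6 arrays, by Pearson's r with the mean of Abcg5 and Abcg8 over those arrays. The r values also carry the difference between the groups and are given without a test. The closest was Apoa4, an apolipoprotein of chylomicrons (r = 0.998), followed by the folate transporter gene Slc46a1 (0.992), the retinol dehydrogenase gene Rdh16 (0.988), the nuclear receptor gene Nr1i3 (0.988) and Cgref1 (0.987). Apoa4 had levels of 11.37, 10.75 and 10.75 on the DJB arrays, against 11.73, 11.89 and 11.98 on the sham arrays. As in Abcg5 and Abcg8, DJB 1 was the DJB array nearest to sham in each of the 5. The choice by r over these same arrays favours that order, and DJB 1 was the highest DJB array in 57.6% of all genes. Slc46a1 fell by 2.38 ± 0.29 (SE, adjusted p = 0.00986), Cgref1 fell by 1.10 ± 0.18 (adjusted p = 0.0295) and Nr1i3 fell by 0.98 ± 0.18 (adjusted p = 0.0497). Apoa4 at -0.91 ± 0.17 and Rdh16 at -1.40 ± 0.27 did not pass (adjusted p = 0.0511 and 0.0615). Whether these calls held when 1 array was left out is not reported here.

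A list of 9 transcription factors other than LXR that act or may act on Abcg5 and Abcg8, among them HNF4α and GATA4 from work in human and mouse, was measured in full. Of these, 1 rose and 0 fell in limma (1 was lower at an unadjusted p under 0.05, Gata4), with a median difference of -0.13. Nr1h4, the gene of the bile acid receptor FXR, read 9.35, 9.87 and 9.25 on the DJB arrays, against 8.50, 8.48 and 8.56 on the sham arrays. It rose by 0.98 ± 0.15 (SE, adjusted p = 0.0275), opposite to the exporters. The call was lost on leaving out sham 1, sham 2 or sham 3 (adjusted p up to 0.113). It was also lost with the replicate number as a block and with all rows tested (adjusted p up to 0.0749). Gata4, a GATA factor of the upper small intestine, read 6.95, 5.97 and 6.55 on the DJB arrays, against 7.83, 7.82 and 7.36 on the sham arrays. Its groups did not overlap, the difference was -1.18 ± 0.23 (SE), and it did not pass (adjusted p = 0.0643); it was called with arrays centred on their median, with dim rows left out, with an intensity trend and without DJB 1 (adjusted p down to 0.0236). Among the DJB arrays Gata4 had the order of Abcg5 and Abcg8 (DJB 1 highest, DJB 2 lowest). DJB 1 was the highest DJB array in 57.6% of all genes. In contrast, sham 3, the highest sham array of the exporters, was the lowest of Gata4. A link of Gata4 with the exporters was not tested. Gata6 differed by -0.13 ± 0.12, Hnf4a by 0.15 ± 0.09 and Hnf4g by -0.18 ± 0.10 (SE), none past the threshold, and Foxo1 differed by -0.17 ± 0.09.

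**Figure D4:**
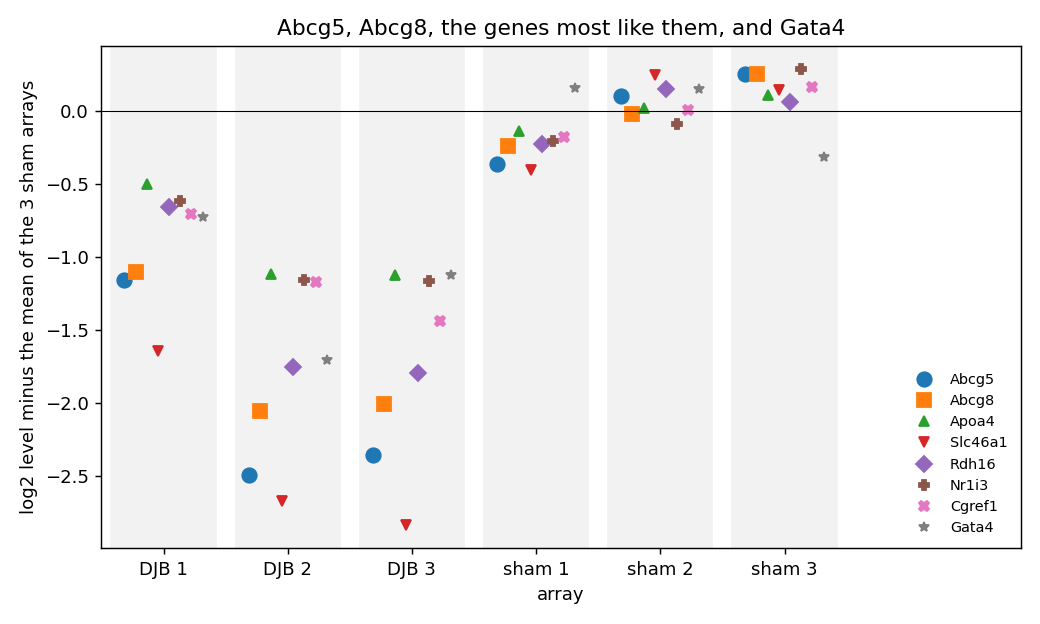
Log2 level on each array minus the mean of the 3 sham arrays, for Abcg5, Abcg8, the 5 genes most like them and Gata4. On the DJB arrays all 8 genes lie below 0, with DJB 1 the nearest to 0, and sham 3 is the lowest sham array of Gata4.

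LXR partners and co-regulators were measured for 7 genes, and 0 passed in limma in either direction, nor did any at an unadjusted p under 0.05. The median difference was -0.07 and the range ran from -0.14 (Rxra, the partner receptor RXRα, ± 0.10 SE) to 0.13 (Rxrb ± 0.11 SE), with the co-activator gene Ncoa1 at -0.08 ± 0.10. Other LXR targets were measured for 9 genes, with Srebf1, Pltp and Arl4c not analysed here. Of the 9, 0 passed in limma (1 at an unadjusted p under 0.05, Apoe), 5 were higher and 4 lower, and the median difference was 0.03. Apoe, an apolipoprotein that takes up cellular cholesterol, read 9.03, 8.69 and 8.62 on the DJB arrays, against 9.69, 9.72 and 8.98 on the sham arrays, which overlap. It differed by -0.68 ± 0.20 (SE, adjusted p = 0.182). The fatty acid synthase gene Fasn differed by 0.23 ± 0.12 and the lipogenic factor gene Mlxipl by -0.20 ± 0.10 (SE), and neither passed.

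Sterol handling inside the cell was covered by 18 of 21 listed genes (Stard5, Gramd1b and Gramd1c were not analysed here), and 0 passed in limma, with a median of 0.05; at an unadjusted p under 0.05, 2 were higher and 2 lower. Stard4, a carrier of cholesterol between membranes, read 9.09, 8.97 and 8.96 on the DJB arrays, against 8.61, 8.62 and 8.54 on the sham arrays, a difference of 0.42 ± 0.09 (SE, adjusted p = 0.0948). It was called with dim rows left out and with an intensity trend (adjusted p down to 0.0307). Apob, the structural protein of chylomicrons, differed by -0.37 ± 0.13 and Numb, an adaptor in the uptake of NPC1L1, by -0.27 ± 0.10 (SE). Neither passed, though the DJB arrays lay below the sham arrays in both.

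SREBP2 targets moved the other way. Of the 13 genes measured (Hmgcs1 was not analysed here), 10 rose and 0 fell or were lower on average, where 0.393% of all genes were called higher. The median difference was 0.89. This list was also chosen with earlier results of these data known, so its share is a description. The genes that rose were Sqle, Msmo1, Idi1, Cyp51, Fdft1, Nsdhl, Fdps, Mvd and Lss, which encode enzymes of cholesterol synthesis. Insig1, the sterol-sensing brake on SREBP2, also rose. When 1 array was left out, 7 to 9 of the 13 genes were called higher. With the replicate number as a block in the fit, 8 were. Sqle, squalene epoxidase, read 10.06, 10.09 and 10.05 on the DJB arrays, against 8.36, 8.25 and 8.37 on the sham arrays. Its SE of 0.09 is small beside the 0.32 of Abcg5, and DJB 1, which stood apart in the exporters, lay with the other DJB arrays. Insig1 rose by 0.77 ± 0.13 (SE, adjusted p = 0.0316), a call that ended when any array other than sham 3 was left out (adjusted p up to 0.122).

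**Figure D5:**
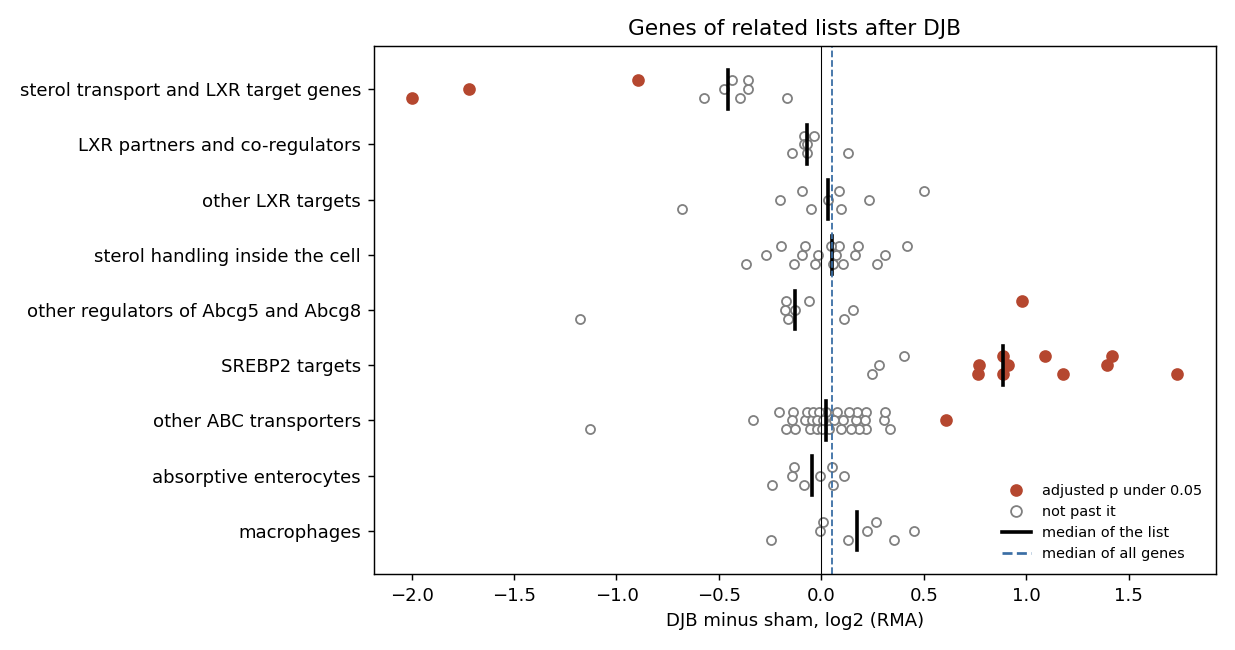
DJB minus sham (log2) for each gene of the related lists and of the absorptive enterocyte and macrophage markers, filled red where the adjusted p was under 0.05, with the median of each list as a black bar and the median of all genes (0.05) as a dashed line. The sterol transport genes lie below 0 with a median of -0.46 and the SREBP2 targets above 0 with a median of 0.89, while the other lists plotted have medians between -0.13 and 0.18.

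The ATP-binding cassette family, to which Abcg5, Abcg8, Abca1 and Abcg1 belong, had 35 other members of subfamilies A to D and G on the array. Among these 1 rose and 0 fell in limma (3 were higher and 1, Abcc2, lower at an unadjusted p under 0.05), 20 were higher and 15 lower, and the median was 0.02. Abcc3, a basolateral export pump for conjugated compounds, rose by 0.61 ± 0.10 (SE, adjusted p = 0.0289), and its call ended when any 1 array was left out (adjusted p up to 0.113). Abcc2, the apical pump for such compounds, read 7.64, 7.22 and 6.81 on the DJB arrays, against 7.76, 8.59 and 8.71 on the sham arrays, and its difference of -1.13 ± 0.27 (SE) did not pass (adjusted p = 0.121); it was called with an intensity trend (adjusted p = 0.0488) and without sham 1 (0.0345). Abcc8 differed by 0.34 ± 0.14 (SE) at a level under the median of all rows.

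In whole tissue, fewer cells of a type and less RNA per cell cannot be told apart. Fabp6, which encodes the bile acid binding protein of ileal enterocytes, averaged 13.9 after DJB and 13.6 in sham (log2 level), so that a defining gene of the labelled tissue was high on the arrays of both groups. Of 8 markers of absorptive enterocytes 0 passed in limma (1 was lower at an unadjusted p under 0.05, Fabp1), with differences from -0.24 (Fabp1) to 0.11 (Krt20) and a summed level of 15.6 on every DJB array and 15.6 to 15.8 on the sham arrays. Of the ileal enterocyte markers 3 of 4 were measured (Slc51b was not analysed here), and their summed level was 14.6 to 14.7 on the DJB arrays, against 14.0 to 14.3 on the sham arrays. Among them Slc10a2, the apical bile acid importer, rose by 1.73 ± 0.22 (SE, adjusted p = 0.0106), and Fabp6 and Slc51a did not pass over all genes, though all 3 were higher without overlap and at an unadjusted limma p under 0.05. Groups without overlap, in either direction, were found for 21.1% of all genes. The 4 hepatocyte markers (Alb, Cyp7a1, Serpina1 and Ttr) were all below the median of all rows, with 0 called and 2 lower at an unadjusted p under 0.05. Markers of adipocytes, which also express Abca1 and Scarb1, had 0 of 4 called (1 was lower at an unadjusted p under 0.05) and a summed level of 7.81 to 8.20 on the DJB arrays and 7.94 to 8.79 on the sham arrays, and 3 of the 4 (Adipoq, Plin1 and Lep) were below that median. Smooth muscle (0 of 5 called, median 0.24), endothelium (0 of 4, median -0.05) and B cell markers (0 of 3 measured, median -0.73) also held no call (at an unadjusted p under 0.05, 1 smooth muscle marker was higher), and the part of these cells in the sterol gene differences was not tested.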

How the data were processed

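The deposited table holds log2 values, 29214 rows by 6 arrays, made by the authors with RMA, per the submitters' processing notes; RMA subtracts background, forces the arrays to a common distribution and reduces the probes behind each row to a log2 level. The common distribution hides a change shared by most genes. The genome build and any batch are not given in the sources used here. Names of rows came from the platform annotation; rows with exactly 1 symbol were kept (15310), and for 527 genes with several rows the row with the highest mean was used. DJB was compared with sham by limma 3.58.1 in R 4.3.3 (lmFit and eBayes, no covariate, no filter), two-sided, with Benjamini-Hochberg adjustment over 14506 genes and a threshold of 0.05; all differences are DJB minus sham. The fit was tested on simulated data. The labels call the rats of a group biological replicates. Same-numbered rats did not deviate together from their group means.

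The 10 genes and the related lists were chosen with earlier results of these data known. Named were the 10 genes, from each related list the genes past the threshold or, where fewer than 3 passed, the 3 with the lowest p, and the 5 genes most like Abcg5 and Abcg8; Nr1h2, Gata6, Hnf4a and Hnf4g were named after their values were seen. Some genes of the related lists are not reported here. Alternatives to the fit were the replicate number as a block, another normalisation, a filter on dim rows, other variance models, all rows, the mean of the rows of a gene, and leaving out each array. Sequences are from RefSeq, assembly GRCr8. Figures were drawn with matplotlib 3.10.9.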

Additional observations from a re-analysis of the deposited data

How the results depend on the processing

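All 10 sterol genes stayed lower after DJB under every alternative run, and of 140 comparisons of a gene with an alternative 127 kept their side of the threshold, 12 lost it and 1 gained it. The number of genes called was 112 as reported, 225 with dim rows left out, 295 with an intensity trend and 33 to 108 when 1 array was left out; fewer genes tested (8837) belong to the filter, and otherwise the cause was not tested. Of the sterol genes, 3 were called as reported and 0 to 3 when 1 array was left out (0 without sham 3). With all rows tested 2 were called, since Abcg5 had an adjusted p of 0.0673 there. With the replicate number as a block 50 genes and 1 sterol gene, Scarb1, were called (adjusted p = 0.103 for Abcg5 and 0.0584 for Abcg8); same-numbered rats share only a number, their deviations correlating at 0.005, -0.12 and -0.15. Centring the arrays on their medians gave 53 higher and 73 lower calls, another quantile normalisation 51 and 68, and the reported fit 57 and 55. The precision is limited by 3 arrays per group.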
